A study of Mus musculus with 51 samples.

Results

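The peaks of the histone mark H3K27ac were compared between aNPC, the astrogliogenic neural progenitors, and lA, the late astrocytes that they form by day 5. Members were all H3K27ac peaks on chromosomes 1 to 19 of these stages, 168098 of the 803622 peaks in the 6 lists of the series: 77553 in aNPC and 90545 in lA. An aNPC peak that overlapped no lA peak by at least 1 bp was called lost, an lA peak that overlapped no aNPC peak was called gained, and all others were called kept. By this rule 35174 aNPC peaks were lost and 42379 were kept, while 44795 lA peaks were kept and 45750 were gained. Each peak was then given to a gene locus, so that the loci with the most gained and lost peaks over the whole course could be named.

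All cells descended from C57/BL-6 mouse embryonic stem cells, and no factor was knocked down in these samples. The aNPC group grew in a medium with N2 supplement, EGF and FGF-2, the growth factors that hold neural progenitors in division. For lA these were replaced by serum and LIF, a cytokine that drives astroglial differentiation through JAK and STAT proteins, for 5 days. The eA group, early astrocytes at day 1 of the same treatment, was used below only to place the changes in time. Each stage had 2 biological replicates, whose reads the authors merged before peaks were called without an input control. Every stage therefore has 1 list, without an error between cultures, and stages could not be tested against each other. Shares are given with 95% Wilson intervals, which cover counting error over peaks only. The read depth of the lists is unknown, and a region without a peak lay under a calling limit that may differ between stages.

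H3K27ac is an acetylation of histone H3 on nucleosomes beside active enhancers and promoters, placed mainly by the acetyltransferases p300 and CBP. H3K4me1, a methylation of the same histone, marks enhancers whether or not they are acetylated, and an enhancer with H3K4me1 alone is often called primed. In the forming astrocyte, enhancers of the progenitor state are shut and those of glial genes are opened, in part by NFI, STAT, AP-1 and RUNX factors.

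Sequences are shown for the strongest distal peaks of the loci with the largest net changes, which are wider and of higher rank than the median changed peak. For each of the 3 loci of largest net gain and of largest net loss, only gained or lost peaks outside promoters and exons were eligible. Of these the peak with the highest −log10 q was taken. The 200 bases around its summit are printed, on the plus strand of mm9. Capitals mark exact matches, on either strand, to 11 short motifs that are spelled out further on. All 6 summits lay in introns, from 26.1 kb (Kirrel3) to 160 kb (Lrtm1) from the nearest coding start site.
Lrtm1 (chr14:29991938-29992137, gained): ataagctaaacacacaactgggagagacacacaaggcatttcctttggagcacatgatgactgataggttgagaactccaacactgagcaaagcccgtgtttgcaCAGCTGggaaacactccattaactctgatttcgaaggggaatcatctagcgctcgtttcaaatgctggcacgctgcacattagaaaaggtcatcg
Adamtsl1 (chr4:85941584-85941783, gained): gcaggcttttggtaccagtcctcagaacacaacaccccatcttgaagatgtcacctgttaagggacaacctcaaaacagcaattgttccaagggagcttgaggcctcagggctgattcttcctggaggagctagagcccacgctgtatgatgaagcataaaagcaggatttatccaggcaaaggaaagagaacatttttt
Glis3 (chr19:28451641-28451840, gained): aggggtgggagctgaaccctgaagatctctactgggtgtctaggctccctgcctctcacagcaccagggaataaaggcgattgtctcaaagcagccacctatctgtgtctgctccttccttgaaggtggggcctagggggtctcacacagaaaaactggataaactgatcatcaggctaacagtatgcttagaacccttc
Auts2 (chr5:132912638-132912837, lost): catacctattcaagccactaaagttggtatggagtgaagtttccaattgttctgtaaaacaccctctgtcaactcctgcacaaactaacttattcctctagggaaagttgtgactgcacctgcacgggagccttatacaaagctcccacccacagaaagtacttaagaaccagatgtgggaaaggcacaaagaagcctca
Kirrel3 (chr9:34824786-34824985, lost): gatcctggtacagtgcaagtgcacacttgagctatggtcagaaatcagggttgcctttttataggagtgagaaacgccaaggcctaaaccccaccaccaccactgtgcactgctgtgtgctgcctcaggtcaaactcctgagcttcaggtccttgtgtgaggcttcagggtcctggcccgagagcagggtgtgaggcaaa
Sema5a (chr15:32493264-32493463, lost): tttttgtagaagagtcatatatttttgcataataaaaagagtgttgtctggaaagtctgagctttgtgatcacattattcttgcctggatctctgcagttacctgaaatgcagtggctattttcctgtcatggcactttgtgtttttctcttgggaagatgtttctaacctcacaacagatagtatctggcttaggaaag

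The gained Lrtm1 peak had a −log10 q of 80.1 in the lA list and a width of 991 bp, and its window held 1 E-box. The other 5 windows held none of the motif letters. In their own lists the gained peaks of Glis3 and Adamtsl1 had −log10 q values of 69.0 and 48.2. The lost peaks of Kirrel3, Sema5a and Auts2 had −log10 q values of 73.2, 43.7 and 42.5. The GC content of these windows ran from 37.5% (Sema5a) to 54.5% (Kirrel3). At Lrtm1 and Glis3 the site already carried an H3K4me1 peak in aNPC, and at Adamtsl1 it did not. At Auts2 and Kirrel3 the lost site still had an H3K4me1 peak in lA, and at Sema5a it had none.

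Over the whole course 45.4% of the aNPC peaks were lost (95% interval 45.0 to 45.7) and 50.5% of the lA peaks were gained (50.2 to 50.9). Measured in sequence, the lists shared 22.7 Mb, which was 51.2% of the length covered in aNPC, 46.3% of that in lA and 32.1% of their union. Few peaks lay at the edge of the rule. Of the kept peaks, 584 in aNPC (1.38%) and 595 in lA (1.33%) shared under 50 bp with the other list. Of the changed peaks, 492 lost (1.40%) and 564 gained (1.23%) had a peak of the other list less than 50 bp away. Most changed peaks stood well apart: 75.1% of the lost peaks and 81.2% of the gained peaks lay more than 1 kb from any peak of the other stage, and 10.1% and 11.4% lay more than 50 kb away. The balance of loss and gain leans on the length of the lists, since with the same number of peaks taken from each by −log10 q the lost share was 48.7% and the gained share 46.7%.

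Changed peaks were far from genes' starts. Promoters, here the 1 kb before and the 100 bp after a coding start site, held the centres of 4.41% of the lost peaks (4.20 to 4.63) and 2.37% of the gained peaks (2.23 to 2.51). Of the kept peaks, 17.1% in aNPC (16.7 to 17.4) and 17.3% in lA (17.0 to 17.7) lay at promoters. In these lists lost peaks were at promoters more often than gained ones, a difference between stages that was not tested. Introns held 45.8% of the lost and 47.1% of the gained peaks, and 46.5% and 48.0% were intergenic. The median distance to the nearest coding start site was 40.8 kb for lost and 37.6 kb for gained peaks, against 15.0 kb for kept peaks of aNPC and 13.5 kb for those of lA.

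**Figure D1:**
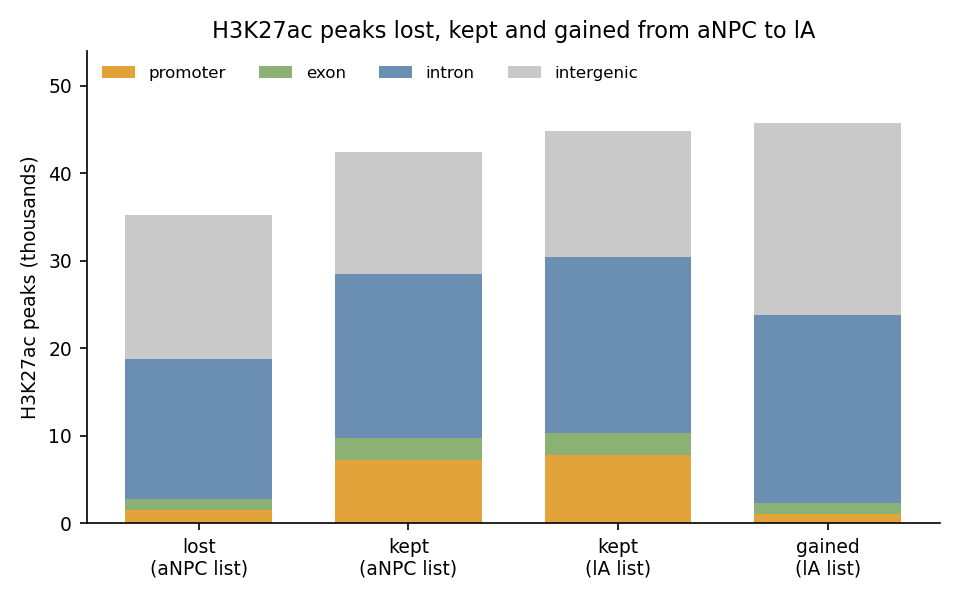
Number of H3K27ac peaks (the axis counts units of 1000 peaks) that were lost, kept (counted in each list) or gained from aNPC to lA, stacked by where the peak's centre lies. Promoters hold 1552 lost and 1084 gained peaks, against 7234 and 7751 kept ones.

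Lost and gained peaks were also narrower and weaker than kept ones of the same list. The median width was 303 bp for lost and 608 bp for kept peaks of aNPC, and 341 bp for gained and 556 bp for kept peaks of lA. Ranked by −log10 q within the list, the median lost peak stood at percentile 33.2 of aNPC and the median gained peak at percentile 36.1 of lA. In the lowest decile of the aNPC list 72.3% of the peaks were lost (71.3 to 73.3), and in the highest decile 3.40% (3.02 to 3.83). In lA the gained share went from 74.1% in the lowest decile (73.2 to 75.0) to 11.0% in the highest (10.4 to 11.7). The highest decile thus still held 264 lost and 999 gained peaks, so strong peaks were among those that changed.

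**Figure D2:**
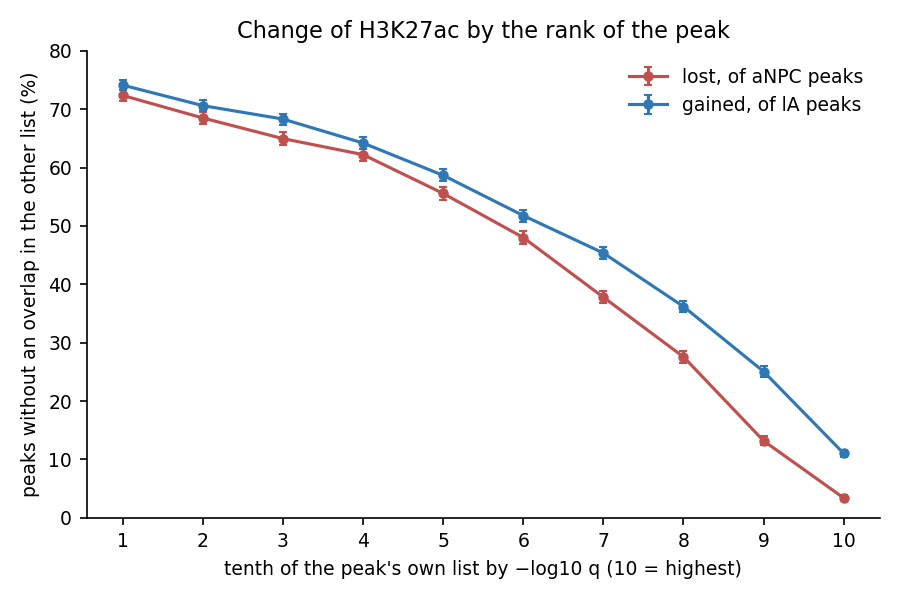
Share of peaks without an overlap in the other stage's list, in percent, by decile of the peak's own list in −log10 q. Bars are 95% Wilson intervals, often smaller than the points. Both shares decline with rank, from 72.3% to 3.40% for lost and from 74.1% to 11.0% for gained peaks.

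Among the kept sites, 31507 were pairs of 1 aNPC and 1 lA peak, and 5291 aNPC peaks lay over 2 or more lA peaks. The summits of a pair were a median of 80 bp apart. In 47.2% of the pairs the lA peak was the wider, with a median ratio of lA to aNPC width of 0.977. The median pair moved by 15.2 percentiles between the lists' own −log10 q ranks. A move of over 50 percentiles was seen in 3179 pairs (10.1%), upward in 1640 and downward in 1539. Kept sites therefore included some whose rank in lA was far from that in aNPC.

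Many sites that ended without acetylation still carried the enhancer mark. Of the lost peaks, 72.6% overlapped an H3K4me1 peak in aNPC (72.1 to 73.1), 68.4% in eA (68.0 to 68.9) and 56.1% in lA (55.6 to 56.6). In other terms 51.2% of the lost peaks had H3K4me1 at both ends of the course, 21.4% had it in aNPC alone and 22.5% had it at neither end. Of the gained peaks, 47.6% already overlapped H3K4me1 in aNPC (47.1 to 48.0), 74.6% did in eA (74.2 to 75.0) and 81.2% did in lA (80.9 to 81.6). The gained peaks with H3K4me1 in lA but not in aNPC made up 36.6%, and those with H3K4me1 at both ends 44.6%. Kept peaks lay between 83.9% and 90.2% for every H3K4me1 list. Distal peaks alone gave nearly the same values, 55.9% for lost peaks in lA and 47.0% for gained peaks in aNPC. All H3K4me1 shares depend on how many peaks each H3K4me1 list holds. They were lower, 43.2% for lost peaks in lA and 34.1% for gained peaks in aNPC, when the H3K27ac summit itself had to lie in the H3K4me1 peak.

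The day 1 list was set beside these changes. Of the peaks lost by day 5, 79.4% had no H3K27ac peak in eA, and 20.6% (20.1 to 21.0) still had one. Of the peaks gained by day 5, 45.2% (44.7 to 45.6) already overlapped an eA peak and 54.8% did not. At kept sites 87.5% of the aNPC peaks and 87.3% of the lA peaks had one. Distal peaks gave like values, with an eA peak at 19.1% of the lost and 44.9% of the gained ones. Of the distal kept peaks 85.4% in aNPC and 85.3% in lA had one. A site missed in the eA list counts both as lost by day 1 and as not yet gained. These shares therefore cannot tell whether loss or gain was further along at day 1. Peaks at promoters differed, since 52.4% of the lost ones (49.9 to 54.9) still had an eA peak and 58.1% of the gained ones (55.2 to 61.0) already had one.

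**Figure D3:**
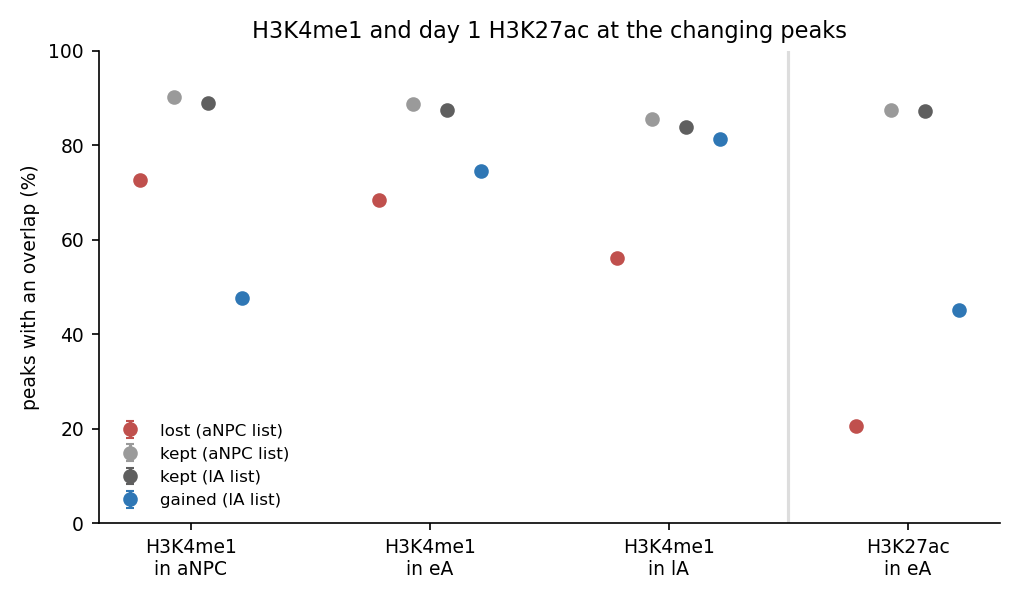
Share of lost, kept and gained H3K27ac peaks, in percent, that overlap an H3K4me1 peak of each stage or an H3K27ac peak of eA. The 95% Wilson intervals are smaller than the points. For lost peaks the H3K4me1 share declines from 72.6% in aNPC to 56.1% in lA, and for gained peaks it climbs from 47.6% to 81.2%.

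Every chromosome had both losses and gains. The lost share ran from 39.1% on chromosome 11 to 49.3% on chromosome 18, and the gained share from 42.7% on chromosome 11 to 55.2% on chromosome 1. Changes of one kind also lay side by side. With all peaks of both lists in order, 632 stretches held 8 or more gained peaks with no lost or kept peak between them, and 280 stretches held 8 or more lost peaks. The one with most peaks held 40 gained peaks over 664 kb at chr15:53755609-54419214 of mm9, around Tnfrsf11b, which encodes osteoprotegerin, Colec10 and Mal2. Of the lost stretches, the highest count was 23 peaks, over 461 kb in Cntn5, and an equal number lay over 280 kb at chr14:101173641-101453933, a stretch with no coding gene.

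Peaks were given to the coding gene with the nearest start site, if they lay in a coding gene or within 50 kb of that start. This gave a gene to 25256 lost peaks (71.8%) and 33593 gained peaks (73.4%). Of 15273 loci with a peak, 6105 had more gained than lost peaks, 4428 had fewer and 4740 had equal numbers, with a median difference of 0 and a mean of 0.546. A net gain of 5 or more peaks was found at 1251 loci (8.19% of the loci) and a net loss of 5 or more at 596 (3.90%). With equal numbers of peaks in both lists these counts were 769 and 814, so which of them is the larger depends on the list lengths. Loci called either way were long: the median gene length was 73.8 kb for net gain and 97.1 kb for net loss, against 22.3 kb for all loci. Of 1597 loci with 10 or more changed peaks, 1492 had both kinds, 84 had only gained and 21 only lost peaks. A locus with that many changed peaks would mostly hold both kinds if loss and gain fell at random. The count therefore does not measure how mixed the change was.

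The largest net gain lay at Lrtm1 (ENSMUSG00000045776.2, chr14:29831394-29846828), a leucine-rich repeat gene, with 18 peaks in aNPC and 65 in lA, of which 55 were gained and 6 aNPC peaks were lost. Over its own body and 5 kb Lrtm1 had a net gain of 2. All 55 lay inside Cacna2d3, the calcium channel subunit gene that hosts Lrtm1, and counted over the body of Cacna2d3 with 5 kb on each side 80 peaks were gained and 16 lost. Adamtsl1 (chr4:85699819-86074289), for a secreted matrix protein, had 13 peaks in aNPC and 56 in lA, with 47 gained and 3 lost. Glis3 (chr19:28333341-28754567), for a zinc finger transcription factor, had 18 and 54 peaks, with 45 gained and 8 lost. Its net gain of 37 was 21 with equal numbers of peaks and 18 for peaks with a −log10 q of 5 or more. With that limit Sorbs2 (27), Palld and Shroom3 (26 each), Camta1 (24) and Lrrn3 (20) stood above it. H3K4me1 peaks went from 23 to 79 at Adamtsl1 and from 49 to 100 at Glis3.

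At each of the 12 loci of largest net gain H3K4me1 peaks were also more numerous in lA than in aNPC, with 1070 against 505 in sum, while the whole H3K4me1 list had 203377 peaks in lA against 150527 in aNPC. Of the gained peaks at these 12 loci 176 of 462 overlapped H3K4me1 in aNPC, or 38.1% (33.8 to 42.6), against 47.6% of all gained peaks. Sorbs2, an adaptor of actin fibres and adhesions, had 4 peaks in aNPC and 39 in lA, with 37 gained and 1 lost. Palld, for the actin-bundling protein palladin, went from 8 to 39 peaks, with 37 gained and 6 lost. Shroom3, which shapes cells through apical actin, went from 13 to 43, with 34 gained and 3 lost, and its promoter had a peak in lA but not in aNPC. Camta1, a calmodulin-binding transcription activator, had 39 gained and 7 lost peaks. Erbb4, the neuregulin receptor, had 34 gained and 7 lost peaks, and Csmd1, a membrane protein with complement control domains, had 26 gained and none lost. The other loci were 2010111I01Rik (37 gained, 8 lost), Setbp1 (35 and 6) and Lrrn3 (36 and 8). All 36 gained peaks given to Lrrn3 lay inside its host gene Immp2l.

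The largest net loss lay at Auts2 (ENSMUSG00000029673.9, chr5:131913205-133019214), a nuclear regulator of neural development, where the peaks went from 67 in aNPC to 32 in lA, with 52 lost and 16 gained. Its net loss of 36 was close to the 35 of Kirrel3 and 34 of Sema5a, and under each of the 7 alternatives run one of these ranked before it. With start sites within 20 kb its difference turned to a net gain of 2. Kirrel3 (chr9:34293711-34844301), an immunoglobulin-type adhesion protein, went from 68 to 34, with 48 lost and 13 gained. Sema5a (chr15:32174568-32626096), a semaphorin of axon guidance, went from 45 to 11, with 40 lost and 6 gained, and its promoter peak was lost. Cntn5, a contactin, lost 32 of 39 aNPC peaks and gained 2, and Pcdh9, a protocadherin, lost 28 of 38 and gained 3. Mdga2, a synaptic adhesion regulator, lost 37 of 54 and gained 12.

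Of the 12 loci of largest net loss, 7 had more H3K4me1 peaks in lA than in aNPC and 5 had fewer, and the sum went from 811 to 874, a smaller rise than that of the whole list. The H3K4me1 peaks went from 60 to 102 at Mdga2, from 105 to 122 at Kirrel3, from 49 to 67 at Sema5a and from 54 to 63 at Cntn5, while at Auts2 they went from 126 to 102 and at Pcdh9 from 79 to 73. Of all lost peaks at the 12 loci 228 of 419 overlapped an H3K4me1 peak in lA, or 54.4% (49.6 to 59.1), against 56.1% of all lost peaks. The count was highest at Kirrel3 with 34 of 48 and lower at Sema5a (24 of 40), Auts2 (30 of 52), Mdga2 (16 of 37) and Cntn5 (12 of 32).

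Other loci of large net loss were Cdkal1, for a tRNA-modifying enzyme (42 lost, 12 gained), Rptor, a subunit of the growth kinase complex mTORC1 (32 and 5), and Pdzrn4 (28 and 3). Pde10a, a cyclic nucleotide phosphodiesterase, had 31 lost and 7 gained peaks, and Ptpro, a receptor tyrosine phosphatase, had 23 lost and 1 gained. Fzd1, a Wnt receptor of 4.38 kb, had 26 lost and 4 gained peaks, but 21 of the lost peaks lay inside the neighbouring gene Cdk14 and none in Fzd1 itself.

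**Figure D4:**
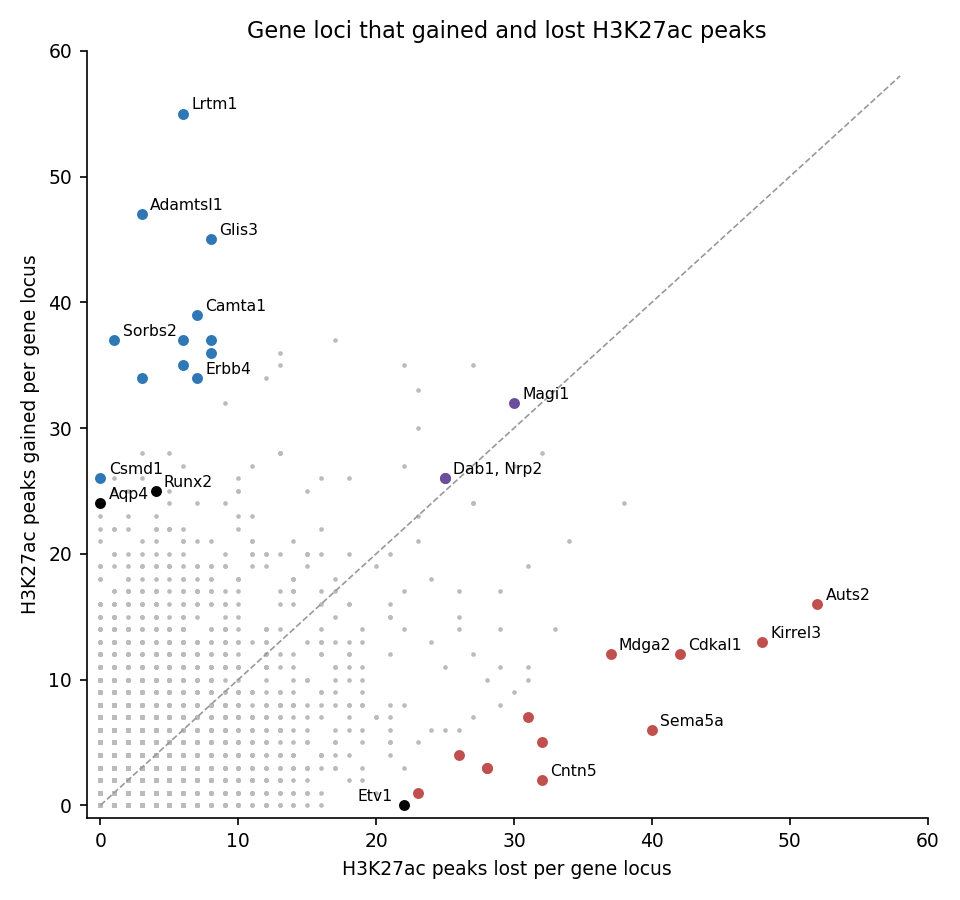
H3K27ac peaks lost (horizontal axis) and gained (vertical axis) at each of 15273 gene loci, with the dashed line at equal numbers. Blue points are the 12 loci of largest net gain, red those of largest net loss, purple 3 loci with many of both, and black are Aqp4, Runx2 and Etv1. Lrtm1 stands at 55 gained and 6 lost, Auts2 at 16 gained and 52 lost, and Magi1 near the line at 32 and 30.

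Some loci had peaks at a single stage. In all, 1314 of the 15273 loci had peaks in lA and none in aNPC. Bmp6, a BMP ligand, led them with 14 gained peaks, 9 of which already overlapped an eA peak, and with H3K4me1 peaks going from 5 in aNPC to 30 in lA. Kif6, a kinesin, followed with 13, then Col8a1, a short-chain collagen, with 12. No gained Col8a1 peak overlapped H3K4me1 in aNPC, and that locus had 1 H3K4me1 peak in aNPC against 20 in lA. The others were 9530085L02Rik with 12, all inside the glutamate receptor gene Grik4, and 1700011F14Rik and Cadps with 11 each. Col6a2, named below, also had 11, and ties were broken by symbol.

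The reverse, peaks in aNPC and none in lA, was found at 1031 of the 15273 loci. The lA list is the longer, with 90545 peaks against 77553, so the counts of the stages are not on equal terms. Fam5c led these with 16 lost peaks, and its H3K4me1 peaks went from 8 to 2. Vrk1, a chromatin kinase of dividing cells, had 14 lost peaks, of which 11 overlapped H3K4me1 in lA. Lrmp and Mab21l2 each had 9, those of Mab21l2 all inside its host gene Lrba. The others of the 6 were 5330437I02Rik with 10 and A930017M01Rik with 8. At Magi1, a scaffold of cell junctions, loss and gain were nearly equal, with 30 lost and 32 gained peaks. Dab1, the Reelin adaptor, and Nrp2, a semaphorin receptor, each had 25 lost and 26 gained, and 22 of the gained Nrp2 peaks lay in Pard3b. This balance holds for the counting used here: the difference at Dab1 was -7 for peaks with a −log10 q of 5 or more, -10 with equal numbers of peaks and 15 over the gene body and 5 kb, and at Nrp2 it was -4 with equal numbers of peaks and -8 over the body. At Magi1 it stayed between -4 and 5 under all alternatives run.

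Most promoters with a peak had one at both stages. Of 21281 coding genes, 9815 had a peak over a promoter at both stages, 1087 in aNPC only (5.11%) and 581 in lA only (2.73%). Of the promoters with a peak in aNPC only, 73.4% overlapped H3K4me1 in lA and 74.0% still had an H3K27ac peak in eA. Of those with a peak in lA only, 75.6% had H3K4me1 in aNPC and 63.3% had H3K27ac in eA. Over all coding genes 51.2% had a promoter peak in aNPC and 48.9% in lA. Of the 1087 promoters 113 lay at loci of net loss (3.90% of all loci), and of the 581 there were 133 at loci of net gain (8.19%), where the promoter's own peak is part of the count.

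Promoter peaks were also counted at marker genes, to be read against the 51.2% and 48.9% of all coding genes with a promoter peak. A promoter peak was present at 14 of 20 astrocyte markers in aNPC and at 14 in lA, with those of Aqp4 and Gja1 gained and those of S100b and Sparcl1 lost. Progenitor markers had a promoter peak at 15 of 19 in aNPC and 13 in lA, with Nes, Sox2 and Vim among those kept. Neuronal markers had one at 8 of 19 in aNPC and 3 in lA, and oligodendrocyte lineage markers at 2 and then 1 of 10. Microglia had 1 of 8 at both stages (P2ry12), endothelium 0 of 8 and then 1 (Kdr), and fibroblasts and pericytes 3 of 8 at both, with Acta2 gained and Foxc1 lost. Pluripotency genes had 2 of 8 and then 1, those of Klf4 at both stages and of Esrrb in aNPC. No peak lay anywhere at the loci of Pou5f1, Zfp42, Dppa5a and Sall4, whereas those of Nanog (1 peak in aNPC, 5 in lA) and Tdgf1 (4 and 9) had more in lA and Esrrb (10 and 3) had fewer. The shares of astrocyte and progenitor markers thus lay above that of all coding genes at both stages, and promoter peaks of these lists did not tell aNPC from lA. The share of neuronal markers lay below it, more so in lA, and those of the other cell type lists were below it at both stages. The part of other cells in the changes was not tested, and fewer cells of a type cannot be told apart from less acetylation per cell.

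The gene lists below are to be read against all loci together, where 1.33 peaks were gained for each lost one and 6105 of 15273 loci were on the side of gain and 4428 on that of loss. List sums of gained minus lost peaks shift with the length of the lists, and with equal numbers of peaks, an alternative chosen after seeing the data, the sum over all loci went from 8337 to -464. At the loci of the 20 astrocyte genes, 102 peaks were gained and 55 lost, and 15 loci had more gained than lost peaks against 4 with fewer. The median difference was 1.5 peaks, against 0 over all loci, and 2 loci passed a net gain of 5 (background 8.19%). The sum of 47 more gained was 22 with equal numbers of peaks, and Aqp4 alone gave 24 of the 47. Aqp4, the astrocyte water channel, went from 6 peaks to 30, with 24 gained and none lost. Of the gained Aqp4 peaks 1 lay in the gene and 11 in the neighbouring gene Chst9, up to 149 kb upstream. Ntrk2, the BDNF receptor, had 15 gained and 10 lost, and Kcnj10, the potassium channel Kir4.1, had 4 gained and none lost. Gfap, the glial intermediate filament, went from 2 peaks to 3. Sparcl1, the secreted protein hevin, had 5 lost and none gained.

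FGF and EGF signalling stood at the other end. Its 16 loci lost 108 peaks and gained 69, with a median difference of -3.5, and 11 loci had fewer gained than lost peaks against 4 with more. A net loss of 5 or more was found at 6 of the 16, against 3.90% of all loci, and a net gain at 2, against 8.19%. The sum of 39 more lost was 59 with equal numbers of peaks and 25 with a −log10 q of at least 5. Etv1, an ETS transcription factor switched on by FGF signals, went from 27 peaks to 6, with 22 lost and none gained. Of the lost Etv1 peaks 12 lay in the gene and 10 in its neighbour Dgkb. Its relatives Etv5 (13 lost, 4 gained) and Etv4 (8 and 1) were also on the side of loss, and the Etv4 promoter peak was lost. Of the lost Etv5 peaks 9 lay in its neighbour Dgkg. Spred1, an inhibitor of the Ras pathway, had 12 lost and none gained. Dusp6 and Dusp4, phosphatases that turn off ERK, had 7 and 5 lost and none gained, with 3 of those of Dusp4 inside Tnks. The receptors differed: Egfr had 6 lost and 2 gained, whereas Fgfr2 had 15 gained and 6 lost, and Erbb4 gained most of all in the list. The annotation gives Fgfr2 a gene model of 3009 kb, so its count is uncertain.

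Over the 12 loci of the LIF pathway 39 peaks were gained and 13 lost, with a median difference of 2 and with 10 loci on the side of gain. A net gain of 5 or more was found at 2 of them, Jak1 and Il6st (background 8.19%), and a net loss at 1, Lifr (3.90%). The sum of 26 more gained was 16 with equal numbers of peaks. Jak1, the kinase bound to the LIF receptor complex, went from 8 peaks to 20, with 12 gained and none lost. Il6st, the shared receptor chain gp130, had 5 gained and none lost, and Socs3, the feedback inhibitor, had 4 gained and 1 lost. Lifr, the LIF receptor itself, had 9 lost and 4 gained, and Stat3 had 2 lost and none gained.

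TGFβ, BMP and Hippo genes had 128 gained and 70 lost peaks over 19 loci, with a median of 3. A net gain of 5 was passed by 7 of the 19, against 8.19% of all loci, and a net loss by 1. The sum of 58 more gained was 21 with equal numbers of peaks and 36 with a −log10 q of at least 5. Smad6, an inhibitor of BMP signals, had 14 gained and 1 lost, and Wwtr1, the Hippo effector TAZ, had 12 gained and 2 lost. Tgfb2, a ligand, had 9 gained and 2 lost, and Id2, a BMP target, had 7 gained and none lost. Tead1, the partner of TAZ, went the other way with 12 lost and 7 gained. Ctgf, a target of these pathways, had a promoter peak in lA only. Bmp4 had no peak at its locus at either stage.

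Matrix and adhesion genes had 101 gained and 50 lost peaks over 18 loci, with a median of 3. Of these loci 6 passed a net gain of 5 (8.19% of all loci) and none a net loss, and the sum of 51 more gained was 32 with equal numbers of peaks. Col8a1 had 12 gained peaks, Col6a2 had 11 and Col3a1 had 6, and none of these collagen loci had a peak in aNPC. Lamb1, a laminin chain, had 6 gained and none lost, and Thbs1, a thrombospondin, had 6 gained and 1 lost. Col4a2 (9 lost, 5 gained) and Sparc (7 and 3) were on the side of loss, but 7 of the 9 lost Col4a2 peaks lay in the adjoining Col4a1. Fn1, fibronectin, had no peak by this rule, because a gene model named Apol7d starts inside it and took the nearby peaks, although the Fn1 promoter had a peak at both stages. Col5a2 had none.

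Reactive and cytokine genes had 59 gained and 21 lost peaks over 15 loci, with a median of 2, and 4 passed a net gain of 5 (8.19% of all loci). The sum of 38 more gained was 24 with equal numbers of peaks. Ptx3, a pentraxin of innate immunity, had 13 gained and 1 lost, all inside Veph1. Il6 and the sphingosine phosphate receptor gene S1pr3 had 7 gained and none lost, and Il6, Lcn2 and Serpina3n had promoter peaks in lA only. Cxcl12 had 4 lost and 2 gained, and its promoter peak was lost.

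The AP-1, NFI and RUNX genes were mixed, with 95 gained and 66 lost peaks over 16 loci and a median of 1. A net gain of 5 or more was reached at 4 of them (background 8.19%) and a net loss at 1 (3.90%). With equal numbers of peaks in both lists the sum over these loci turned from 29 more gained to 6 more lost, and it was 8 more gained with a −log10 q of at least 5. Runx2 had 25 gained and 4 lost, and Runx1 had 12 and 5. Nfib, which with Nfia starts gliogenesis, had 25 lost and 11 gained, while Nfia had 17 lost and 18 gained. Fos and Atf3, both of the AP-1 group, had 6 gained and 1 lost each.

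Progenitor genes had 40 lost and 37 gained peaks over 18 loci, with a median of -1, and 11 loci had more lost than gained against 5 with fewer. A net gain of 5 or more was reached at 2 of them, Hes1 and Prom1 (background 8.19%), and a net loss of 5 or more at none (3.90%). The sum of 3 more lost was 14 with a −log10 q of at least 5 and 17 with equal numbers of peaks. Hes1, a Notch effector, had 11 gained and 5 lost, and Lhx2, a homeodomain factor of the early forebrain, had 4 lost and none gained. The oligodendrocyte list had 29 lost and 16 gained peaks over 9 loci, a sum of 13 more lost that was 23 with equal numbers of peaks. Olig1 had 8 lost and 2 gained, Olig2 had 5 and 1, and Nkx2-2 had 7 and 1, whereas Mbp, for a myelin protein, had 1 lost and 8 gained, past a net gain of 5, and Cnp had 1 lost and 2 gained. The lost Olig1 peak of highest rank had a −log10 q of 246 in aNPC. Neuronal genes had 36 gained and 27 lost peaks over 16 loci, near the ratio of all loci. A net gain of 5 or more was reached at 3 of these loci (background 8.19%) and a net loss at 1 (3.90%). The sum of 9 more gained was 2 with a −log10 q of at least 5 and 0 with equal numbers of peaks. Syt1, the calcium sensor of synaptic vesicles, had 11 lost and 2 gained, whereas Rbfox3 and Stmn2 each had 5 gained and no aNPC peak. Neither had an H3K27ac promoter peak in aNPC, eA or lA, and none of the gained Stmn2 peaks lay in the gene.

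Cell cycle genes had 36 lost and 28 gained peaks over 18 loci, a sum of 8 more lost that was 15 with equal numbers of peaks, and 8 of the 18 had a promoter peak in aNPC only, against 5.11% of all promoters, none the reverse. These were Ccnd1, Ccnb1, Cdk6, Mki67, Top2a, Mcm2, E2f1 and Cdkn1a. The members went both ways: of genes that drive entry into the cycle, Cdk6 and Ccnd2 each had 6 lost and none gained, while Ccnd1 had 2 lost and 6 gained. Of the inhibitors, Cdkn1c, had 7 gained and none lost, while Cdkn1a, had 3 lost and none gained. Microglial genes had 8 lost and 3 gained, endothelial genes 11 and 15, and pluripotency genes 10 and 9. The endothelial sum of gained minus lost went from 4 to -2 with a −log10 q of at least 5 and to 0 with equal numbers of peaks. Fibroblast and pericyte genes had 15 lost and 26 gained peaks over 7 loci, with a median difference of 4, the highest of the 15 lists. The sum of 11 more gained was 7 with equal numbers of peaks. A net gain of 5 was reached at 3 of the 7 (8.19% of all loci), which were Pdgfrb, from 0 to 5 peaks, Rgs5, from 1 to 6, and Tbx18, from 1 to 7, and a net loss at Foxc1 with 13 lost and 4 gained, of which 11 and 4 lay in Gmds. These genes thus moved to the same side as the matrix and adhesion genes, and their part in that result was not tested.

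**Figure D5:**
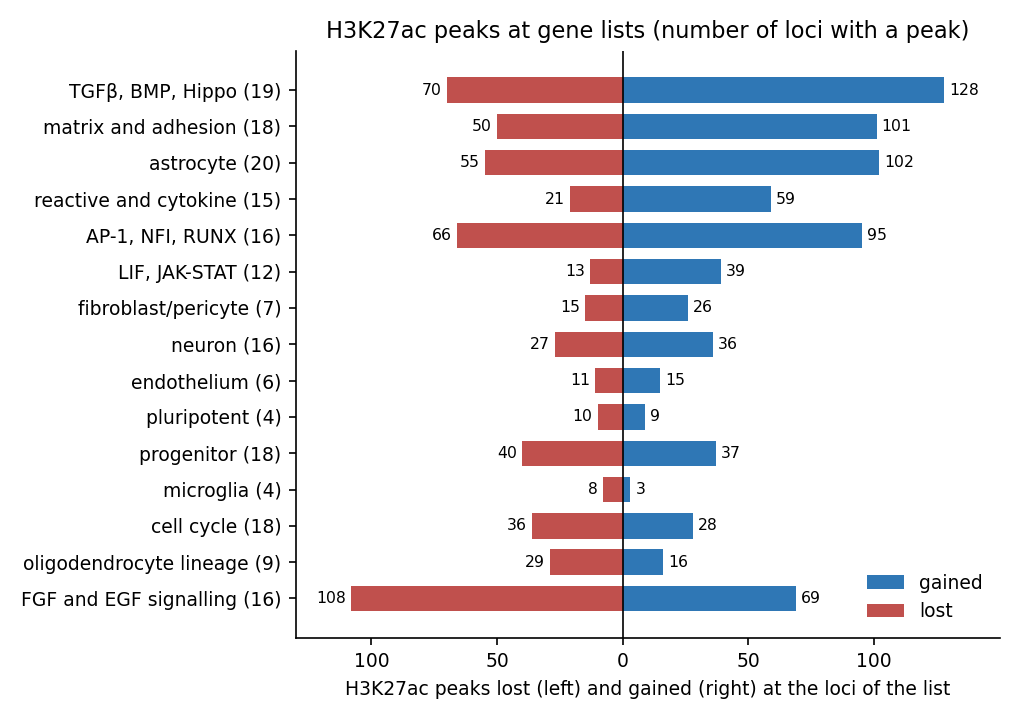
Total H3K27ac peaks lost (red, left) and gained (blue, right) at the loci of 15 gene lists, with the number of loci that had a peak in parentheses. TGFβ, BMP and Hippo genes show 128 gained and 70 lost, and FGF and EGF signalling genes 69 gained and 108 lost.

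In the 200 bp around the summits lost and gained peaks were close in GC content and differed in CpG and in some motifs. The median GC content was 47.0% for lost and 47.5% for gained peaks, against 51.5% and 51.0% for kept peaks of aNPC and lA. CpG dinucleotides averaged 2.82 per window in lost and 2.01 in gained peaks. Matches were exact and on both strands: AP-1 TGANTCA, ETS CAGGAAGT, RUNX TGTGGTT, NF1 half-site CTTGGCA, SOX ACAATGG, STAT TTCCNGGAA, TEAD GGAATGT, E-box CAGCTG, octamer ATGCAAAT, homeobox TAATTA and forkhead TGTTTAC. No motif's letters contain those of another, and a match is a description, not a bound site.

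The ETS letters were in 2.58% of the lost peaks and 1.74% of the gained peaks, against 1.94% of all peaks and 2.06% of the 200 bp upstream of coding start sites. Among distal peaks the shares were 2.63% (2.46 to 2.81) and 1.74% (1.63 to 1.87), and the lost share was the higher in each of 5 steps of GC content. Octamer letters were in 1.13% of the lost and 0.820% of the gained peaks, against 0.847% of all peaks and 1.18% of upstream windows. TEAD letters were in 2.96% of the lost and 3.29% of the gained peaks, against 2.85% of all peaks and 2.17% of upstream windows. For AP-1 the shares were 6.39% and 6.62%, against 5.76% and 4.53%. RUNX (4.31% and 4.31%, against 3.91% and 3.27%) and the NF1 half-site (4.43% and 4.47%, against 4.30% and 3.25%) had close shares in this window. So had SOX (2.91% and 2.85%, against 2.66% and 1.82%) and forkhead (2.80% and 2.84%, against 2.62% and 2.03%), and STAT had 0.637% and 0.752% against 0.675% and 0.816%. E-box letters were in 12.2% and 11.7%, against 12.2% and 10.4%, and homeobox letters in 4.05% and 3.92%, against 3.35% and 3.04%.

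A window of 500 bp gave larger differences for all motifs but the NF1 half-site. In it the gained share was the higher for AP-1 (15.2% lost, 18.4% gained), TEAD (6.85% and 9.21%), STAT (1.53% and 2.18%) and RUNX (10.4% and 11.0%). The lost share was the higher for ETS (6.91% and 4.28%), octamer (3.63% and 2.44%), E-box (27.9% and 25.1%) and homeobox (12.4% and 11.5%). NF1 half-site (11.7% and 11.7%), SOX (7.44% and 7.36%) and forkhead (7.18% and 7.31%) stayed close. When both lists were limited to a −log10 q of 5 or more, the order of E-box in the 200 bp window turned, with the gained share higher by 0.0575 percentage points, and that of the other motifs did not.

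To show such matches in place, the distal lost peak of highest −log10 q with ETS letters and the distal gained peak of highest −log10 q with TEAD letters are printed, both chosen after their values were seen. The first lies in an intron 17.5 kb from the nearest Ccnd2 start, with a −log10 q of 159. The second lies in an intron of Erbb4, 328 kb from its start, with a −log10 q of 65.5. Both were marked by H3K4me1 at the opposite stage.
Ccnd2 (chr6:127083185-127083384, lost): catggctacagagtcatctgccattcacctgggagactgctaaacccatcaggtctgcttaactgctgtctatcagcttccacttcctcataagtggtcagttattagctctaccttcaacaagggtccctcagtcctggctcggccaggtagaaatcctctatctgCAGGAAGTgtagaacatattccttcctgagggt
Erbb4 (chr1:68826695-68826894, gained): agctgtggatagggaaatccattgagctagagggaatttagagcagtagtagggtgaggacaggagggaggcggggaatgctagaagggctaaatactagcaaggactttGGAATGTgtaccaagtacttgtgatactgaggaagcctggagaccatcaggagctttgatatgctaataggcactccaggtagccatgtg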

How the data were processed

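H3K27ac and H3K4me1 ChIP-seq was used in aNPC, eA and lA. The authors aligned reads uniquely to mm9 with Bowtie, merged the 2 replicates of a stage with SAMtools 0.1.19 (version from the submitters' processing notes) and called peaks with MACS2 at default settings, without input. The deposited −log10 values give the q-value that the authors' caller computed for each summit. The deposited fold is the enrichment at the summit over the local background of the same reads, and the deposited score, not used, is derived from significance. Depth is unknown, and −log10 q was used only within a list.

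Peaks on chromosomes 1 to 19 were used, with starts written 1-based. Left out were 1864 aNPC and 2160 lA peaks on other chromosomes. Genes, 21281 coding symbols with 43969 start sites, came from GENCODE M1 on NCBIM37, which is mm9. Gene records with one symbol were joined. The symbols Sox1 and Map2 of the lists were not analysed here. Overlap and assignment functions were tested on simulated data. Analyses ran in Python 3.11.15, NumPy 2.4.6 and SciPy 1.17.1, and plots drawn with matplotlib 3.10.9.

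Named were the 12 loci with the largest and the 12 with the smallest difference of gained and lost peaks, the 6 loci with most peaks in lA only and in aNPC only, 3 loci with most changed peaks and a difference of at most 2, and members of the gene lists. The members and lists were chosen with earlier results of these data known. Of 51 samples, 8 RNA libraries with conflicting labels were left unassigned, and RNA was not used. Alternatives changed the overlap rule, the −log10 q limit of 5, the list length, the chromosomes, the assignment to genes and the motif window.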

Additional observations from a re-analysis of the deposited data

How the results depend on the processing

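No paired analysis was possible because the authors merged both replicates of a stage before peaks were called, and for the same reason no replicate could be left out. Given in the order lost share, gained share, H3K4me1 in lA at lost peaks and H3K4me1 in aNPC at gained peaks, the values were 51.8%, 56.0%, 60.1% and 51.7% when the summit had to lie in the other list's peak, and 34.1%, 41.0%, 53.0% and 43.6% when a peak within 1 kb was enough. They were 44.2%, 48.6%, 64.3% and 55.3% when peaks of both lists needed a −log10 q of 5 or more, 38.5%, 44.2%, 60.7% and 51.7% with that limit on the peak itself alone, and 48.7%, 46.7%, 58.2% and 49.9% with equal numbers of peaks. H3K4me1 peaks of −log10 q of at least 5 gave 50.5% at lost and 42.1% at gained peaks, and the H3K27ac summit inside the H3K4me1 peak gave 43.2% and 34.1%. Adding X and Y moved none of these 4 shares beyond their intervals. The counts of loci with net gain and net loss were 762 and 386 with the limit on the peak itself and 395 and 159 with start sites within 20 kb, and net gain was 769 with equal numbers of peaks. Under the other alternatives both counts stayed within 1.5 times. Of the 24 loci with the largest net change, 20 had the same direction under all 7 alternatives run for them. This counts direction and not size. Of 273 net values of the 39 named loci under the alternatives, 87 moved by over 1.5 times. Fzd1 turned to a net gain of 1 when counted over its own body and 5 kb, and Auts2 to a net gain of 2 within 20 kb of a start site. Lrtm1, Erbb4 and Fzd1 had a net change of 0 within 20 kb. With a −log10 q of 5 or more in both lists the net change of 2010111I01Rik, Csmd1, Glis3, Setbp1, Fzd1, Mdga2 and Pde10a was over 1.5 times smaller, at 16, 15, 18, 18, -13, -14 and -15, and with equal numbers of peaks that of Csmd1, Glis3 and Setbp1 was, at 17, 21 and 18. In alternatives chosen after seeing the data, the sum over the endothelial list turned to -2 with a −log10 q of at least 5, and that over AP-1, NFI and RUNX genes to -6 with equal numbers of peaks. Of the 30 list sums under these alternatives these 2 turned, and the sums of the fibroblast and pericyte, microglial and pluripotency lists were 7, -7 and -3 with equal numbers of peaks. The cause was not tested.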
